A study of Mus musculus with 12 samples.

Results

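The dual-specificity MAPK phosphatases remove phosphate from both the threonine and the tyrosine of the activation loop of MAP kinases and so return these kinases to their resting state. The 9 genes described here, Dusp1, Dusp2, Dusp3, Dusp4, Dusp5, Dusp6, Dusp7, Dusp10 and Dusp16, were chosen by name, and all 9 were found once the versions of the gene identifiers had been dropped. They are 9 of 47937 genes in the count table, and all 9 were among the 11760 genes with enough reads to be tested. They were followed in bone marrow-derived macrophages of C57BL/6 mice, grown from marrow for 7 days with CSF-1, in 4 groups of 3 RNA sequencing libraries. M0 were resting macrophages without inhibitor, for which the labels give no time. The second group was stimulated for 18 h with 50 ng/ml IFNγ and 20 ng/ml LPS and is called IFNγ + LPS, the stimulus of inflammatory macrophages. The remaining groups were resting and IFNγ + LPS-stimulated cells that also received T863 at 50 µM for 18 h, a small-molecule inhibitor of DGAT1, the enzyme that completes triglyceride synthesis. That treatment is called DGAT1i. It acts on the enzyme, so that the mRNA of Dgat1 is no check of it. For 2 of the resting DGAT1i libraries 1 label field names T864 and T865 where another names T863. No source ties the libraries of a group to separate mice or cultures, so that the p-values measure the spread between these libraries, which may be technical.

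MAP kinases carry signals from Toll-like receptors and growth factor receptors to the nucleus. The ERK branch is driven by CSF-1 and by LPS, while the p38 and JNK branches respond to LPS and to stress and act on the transcription and stability of cytokine mRNAs. The phosphatases differ in place and preference. Dusp1, Dusp2, Dusp4 and Dusp5 encode nuclear enzymes of which many are immediate early gene products, with Dusp5 selective for ERK. Dusp6 and Dusp7 encode cytoplasmic enzymes selective for ERK. Dusp10 and Dusp16 encode enzymes that prefer JNK and p38. Dusp3 encodes a small atypical enzyme that lacks the kinase-binding domain of the others. In macrophages Dusp1 is best known for limiting p38 and JNK signalling, and with it the cytokine output, after LPS.

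Each library held between 4996014 and 6621671 reads in genes, so that 1 CPM, 1 count per 1000000 reads of a library after TMM scaling, was worth 4.28 to 7.58 reads. Libraries of a group had correlations of 0.988 to 0.992 of their log2 CPM. Nos2, the inducible nitric oxide synthase, had 0 reads in every unstimulated library and at least 23092 reads in every stimulated one. The defining macrophage markers were present in every library, with all 7 detected and a summed level of 7820 to 18000 CPM. Neutrophil markers summed to 15.2 to 81 CPM over the groups, and those of dendritic, T and B cells to at most 16.8 CPM. Megakaryocyte markers reached 2.57 CPM and stromal markers 2.11 CPM, whereas mast cell and erythroid markers were at 0 throughout. Levels are given as RPKM, the CPM per 1000 bases of the union of a gene's exons, so that genes of different length stand on 1 scale.

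In M0 the pool of phosphatase mRNA was made up mostly of Dusp6, Dusp3 and Dusp7, with Dusp6 the most abundant at 53.6 ± 3.15 RPKM (SD, n = 3). After IFNγ + LPS Dusp1 was its largest part and took 40.9% ± 1.12 of the summed RPKM against 7.06% ± 1.58 in M0. The share of Dusp6 was 32.1% ± 1.87 in M0 and 9.59% ± 1.65 after stimulation. Dusp3 held a steadier place, with 28% ± 0.846 of the sum in M0 and 24.8% ± 1.14 after stimulation. The sum over the 9 genes was 166.9 ± 4.05 RPKM in M0 and 104.1 ± 6.09 RPKM after IFNγ + LPS. With DGAT1i it was 188.1 ± 1.26 RPKM at rest and 127.4 ± 5.03 RPKM after stimulation. In stimulated cells with DGAT1i, Dusp1 made up 51.6% ± 3.38 of the sum. With the longest transcript as the length the share of Dusp1 was 9.19% ± 2.03 in M0 and 47.3% ± 1.18 after stimulation. These shares are descriptions and were not tested.

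**Figure D1:**
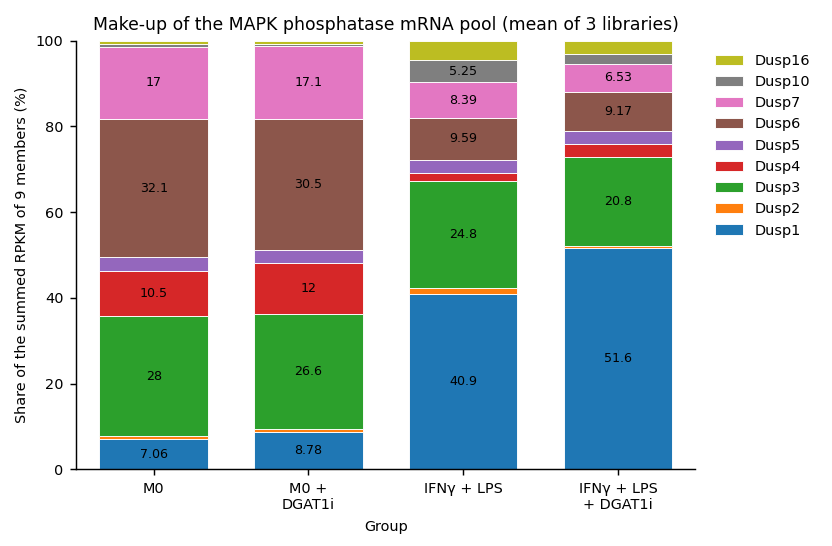
Share of each of the 9 phosphatase genes in their summed RPKM (vertical axis, percent), as the mean of 3 libraries in each of the 4 groups (horizontal axis). Dusp6 and Dusp3 fill most of the bar in both resting groups, with 32.1% and 28% in M0, and Dusp1 takes 40.9% after IFNγ + LPS and 51.6% when DGAT1i was added.

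The order of the levels in M0 ran Dusp6, Dusp3, Dusp7, Dusp4, Dusp1, Dusp5, Dusp16, Dusp2 and Dusp10. The libraries of neighbours in that order did not overlap down to Dusp5, while Dusp16, Dusp2 and Dusp10, all between 0.716 and 1.63 RPKM, overlapped with their neighbours. In M0 with DGAT1i the first 6 places were the same, and the last 3 were Dusp2, Dusp16 and Dusp10, of which Dusp2 and Dusp16 overlapped. After IFNγ + LPS the order was Dusp1, Dusp3, Dusp6, Dusp7, Dusp10, Dusp16, Dusp5, Dusp4 and Dusp2. There the libraries overlapped between Dusp6 and Dusp7, between Dusp10 and Dusp16, and between Dusp4 and Dusp2. With both treatments the order was Dusp1, Dusp3, Dusp6, Dusp7, Dusp5, Dusp16, Dusp4, Dusp10 and Dusp2, and Dusp5, Dusp16 and Dusp4 overlapped in turn. With the longest transcript as the length, Dusp4 and Dusp1 overlapped in both resting groups, Dusp1 came before Dusp4 in M0 with DGAT1i, and Dusp16 came before Dusp10 after IFNγ + LPS, at 7.14 against 5.96 RPKM and with no overlap. On that scale Dusp16 also came before Dusp2 in M0 with DGAT1i and before Dusp5 with both treatments, so that the order of neighbours depends on the length used. Dusp4 was the eighth of the 9 after IFNγ + LPS on both scales.

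**Figure D2:**
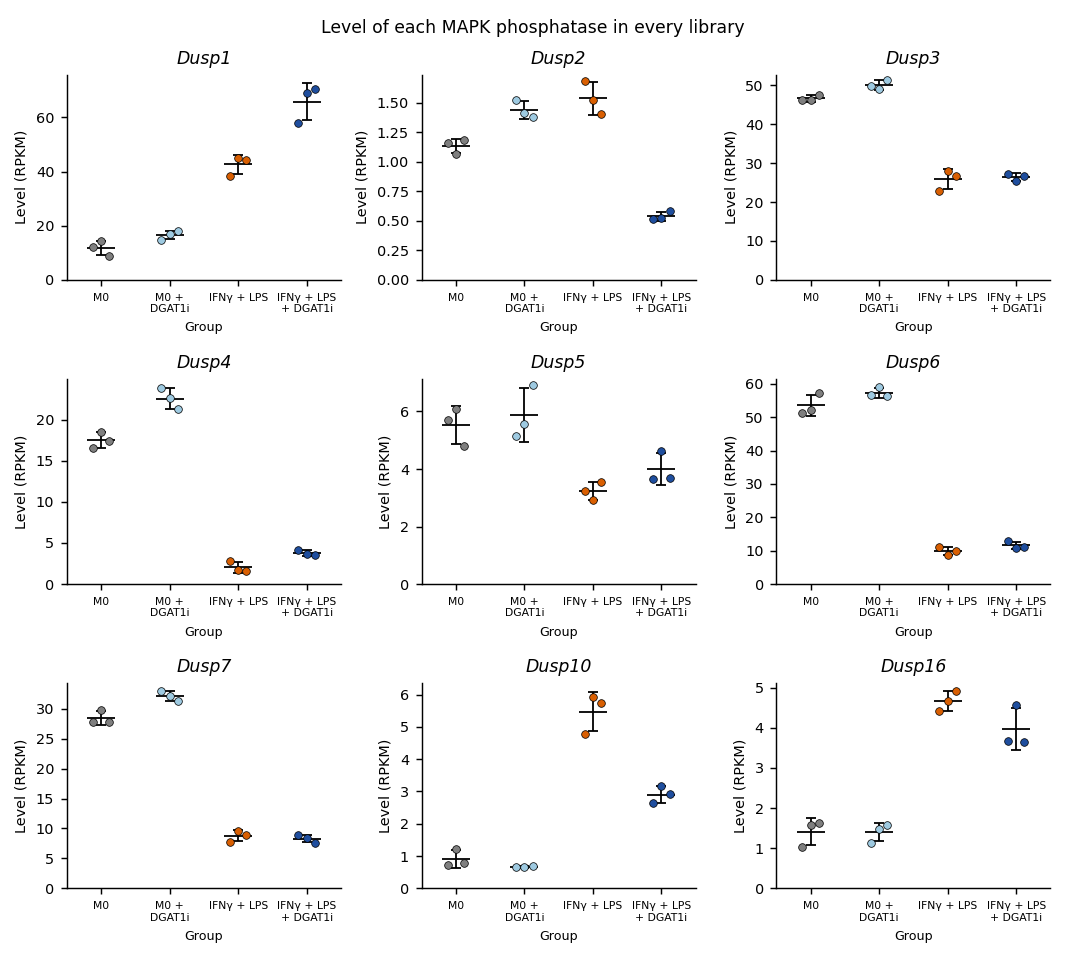
Level of each of the 9 genes in RPKM (vertical axes, each from 0) in every library of the 4 groups (horizontal axes). Points are libraries, the horizontal bar is the mean of 3 and the whiskers are 1 SD. The stimulated libraries lie above the resting ones for Dusp1, Dusp10 and Dusp16 and below them for Dusp3, Dusp4, Dusp5, Dusp6 and Dusp7, and for Dusp2 the libraries with both treatments lie below all others.

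The comparison of IFNγ + LPS with M0 asks how the phosphatases changed on inflammatory activation. Of the 9 genes, 8 had an adjusted p under 0.05 in the quasi-likelihood F test of edgeR (Benjamini-Hochberg over all genes tested, called the edgeR adjusted p), and 73.3% of all genes did so. Dusp1, Dusp10 and Dusp16 rose, and Dusp3, Dusp4, Dusp5, Dusp6 and Dusp7 fell, where 37.1% of all genes were called higher and 36.2% lower. The libraries of the groups did not overlap for any of the 9 genes, and neither did they for 75.4% of all genes. The median log2 fold change of the 9 genes was -0.77, beside 0.01 over all genes tested. These counts lie near those of all genes, and the description therefore rests on the single members. In bulk RNA, fewer cells of a type and less RNA per cell cannot be told apart.

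Dusp1 (ENSMUSG00000024190.6, chr17:26505590-26562128, minus strand), the nuclear phosphatase of p38, JNK and ERK, had 12.3, 14.2 and 8.83 RPKM in the M0 libraries and 38.5, 45.0 and 44.4 RPKM after IFNγ + LPS. Every stimulated library was above every resting one, and the lowest M0 library was replicate 3. The log2 fold change was 1.85 ± 0.16 (SE, 3 against 3 libraries), a 3.62-fold rise (edgeR adjusted p = 1.77e-06). Dusp10 (ENSMUSG00000039384.8, chr1:184013302-184075636, plus strand), a phosphatase of JNK and p38, had 15, 28 and 17 reads in M0 and 69, 100 and 93 reads after stimulation, or 0.716, 1.23 and 0.778 RPKM against 4.78, 5.92 and 5.73 RPKM. It was low in all resting libraries and several times higher in all stimulated ones. Its log2 fold change of 2.58 ± 0.20, or 5.98-fold, was the largest rise among the 9 genes (edgeR adjusted p = 2.90e-17). Dusp16 (ENSMUSG00000030203.17, chr6:134715468-134792625, minus strand), which also acts on JNK and p38, had 1.02, 1.59 and 1.62 RPKM in M0 and 4.43, 4.66 and 4.92 RPKM after stimulation. M0 replicate 1 was the lowest library, and the groups lay far apart. The rise of 1.72 ± 0.13 on the log2 scale was 3.29-fold (edgeR adjusted p = 7.51e-17).

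The 3 genes that rose are shown with the bases just upstream of their RefSeq transcription start on GRCm38.p6, together with Dusp6, the gene that fell from the highest level. The stretches end where GENCODE annotates an exon and run 5′ to 3′ on the strand of the gene, and capitals mark letters of a searched motif. The Dusp1 stretch is chr17:26508520-26508622 (minus strand), from 150 to 48 bases before the start. The Dusp10 stretch is chr1:184034302-184034380 (plus strand). The RefSeq starts of Dusp1 and Dusp10 both lie inside the GENCODE gene. The Dusp16 stretch is chr6:134792629-134792778 (minus strand), and that of Dusp6 is chr10:99263081-99263230 (plus strand).
Dusp1: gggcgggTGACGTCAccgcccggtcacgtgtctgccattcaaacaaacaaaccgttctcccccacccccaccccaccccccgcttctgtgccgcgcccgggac
Dusp10: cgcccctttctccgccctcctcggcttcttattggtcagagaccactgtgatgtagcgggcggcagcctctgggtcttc
Dusp16: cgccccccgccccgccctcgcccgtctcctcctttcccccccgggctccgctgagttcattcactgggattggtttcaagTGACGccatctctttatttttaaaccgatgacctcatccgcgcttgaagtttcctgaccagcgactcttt
Dusp6: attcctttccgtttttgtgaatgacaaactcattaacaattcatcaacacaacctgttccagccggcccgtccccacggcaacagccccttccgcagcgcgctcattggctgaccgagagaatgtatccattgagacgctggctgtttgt

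Windows of 250 bases before to 50 bases after the start were matched for 8 of the 9 genes in the RefSeq table and searched on both strands. The cyclic AMP response element TGACGTCA was found in the window of Dusp1, beginning 143 bases before the start, and in no other of the 8, beside 1.79% of all 32851 windows. Its half-site TGACG, which the full element also contains, was in the windows of Dusp1, Dusp2, Dusp5 and Dusp16, beside 20.8% of all windows. The CArG box bound by serum response factor was found at 2 adjacent positions in the window of Dusp5, beside 1.63% of all windows. None of the 8 windows held the AP-1 site TGANTCA (7.81% of all windows), the IFNγ-activated site TTCNNNGAA (8.3%), the interferon-stimulated response element (3.44%), the ETS core CCGGAA (14.9%) or the NF-κB site (8.46%). A match describes letters and is not a bound site, and the absence of a match says only that these letters are not in the window.

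Among the ERK-selective enzymes, Dusp6 (ENSMUSG00000019960.7, chr10:99263231-99267489, plus strand), a cytoplasmic feedback phosphatase whose own transcription follows ERK activity, had 51.2, 52.3 and 57.1 RPKM in M0. After IFNγ + LPS it had 11.0, 8.74 and 9.99 RPKM. The highest stimulated library lay far below the lowest resting one, and the log2 fold change was -2.44 ± 0.08, a 5.42-fold fall (edgeR adjusted p = 3.74e-35). Dusp7 (ENSMUSG00000053716.9, chr9:106368632-106375724, plus strand), its cytoplasmic relative, had 27.8, 29.7 and 27.8 RPKM in M0 and 7.78, 9.6 and 8.88 RPKM after stimulation. Again no library of the groups came near another, with a log2 fold change of -1.69 ± 0.08, or 3.24-fold lower (edgeR adjusted p = 1.61e-26). Dusp5 (ENSMUSG00000034765.6, chr19:53529109-53542431, plus strand), the nuclear ERK phosphatase, had 5.7, 6.08 and 4.79 RPKM against 3.23, 2.91 and 3.56 RPKM. The groups were apart, though by less, and the log2 fold change was -0.77 ± 0.17 (edgeR adjusted p = 4.43e-05). An antisense gene covers 22.1% of the exon bases of Dusp5, and whether reads were counted by strand is not given in the sources used here, so that part of its reads could belong to that gene.

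Dusp4 (ENSMUSG00000031530.6, chr8:34807297-34819894, plus strand), a nuclear phosphatase of ERK, JNK and p38, had 16.6, 18.5 and 17.4 RPKM in M0 and 2.77, 1.71 and 1.64 RPKM after IFNγ + LPS. This was the largest fall among the 9 genes, at -3.12 ± 0.14 on the log2 scale, or 8.69-fold (edgeR adjusted p = 3.72e-28). Within the stimulated group replicate 1 was above the other two, and the coefficient of variation was 31%. Dusp3 (ENSMUSG00000003518.13, chr11:101971143-101987013, minus strand), the atypical enzyme, had 46.3, 46.1 and 47.6 RPKM in M0 and 22.9, 28.0 and 26.6 RPKM after stimulation. All resting libraries lay above all stimulated ones, with a log2 fold change of -0.85 ± 0.06, or 1.8-fold (edgeR adjusted p = 3.20e-19). An antisense gene covers 12.9% of the exon bases of Dusp3.

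Dusp2 (ENSMUSG00000027368.6, chr2:127336159-127338376, plus strand), a nuclear phosphatase first found in activated T cells, was the only gene of the 9 not called. It had 16, 16 and 17 reads in M0 and 16, 17 and 15 reads after IFNγ + LPS, or 1.16, 1.06 and 1.18 RPKM against 1.68, 1.53 and 1.4 RPKM. The reads were nearly equal, and the groups came apart through the scaling of the libraries. The log2 fold change was 0.43 ± 0.30 with a 95% interval of -0.18 to 1.04 (edgeR adjusted p = 0.196), and with scaling by library size alone it was -0.04. That scaling moved the median of all genes to -0.46, and the other 8 genes kept their direction and call under it. Markers of other cells moved along with these changes. The 2 of 4 dendritic cell markers that could be tested were higher after stimulation, with a summed level of all 4 of 12 to 16.8 CPM against 0.133 to 0.696 CPM in M0. The macrophage markers went both ways, with 3 of 7 higher, Adgre1, Mertk and Fcgr1, and 4 lower. They summed to 8230 to 8880 CPM against 12900 to 14200 CPM. That sum leans on Lyz2, on average the most abundant of the 7, which had -1.71 on the log2 scale. Of the neutrophil markers, 2 of the 4 tested were lower, Ngp at -2.60 and Ltf at -2.93 on the log2 scale, with sums of 15.2 to 25.5 CPM against 31.6 to 38.7 CPM. The T cell marker tested, Lck, was higher at 4.57, with sums of 2.53 to 5.04 CPM against 0 to 0.418 CPM, and the B cell marker tested, Cd79b, was lower at -4.76, with sums of 0.211 to 0.562 CPM against 2.03 to 2.66 CPM. Their part in the phosphatase results was not tested.

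The same stimulus was compared in cells that all received DGAT1i. All 9 genes passed the test there, beside 70.6% of all genes, with Dusp1, Dusp10 and Dusp16 higher and the other 6 lower, beside 35.3% of all genes in either direction. The libraries did not overlap for any of the 9, nor for 72.5% of all genes. Dusp1 had a log2 fold change of 1.99 ± 0.14, Dusp10 of 2.11 ± 0.25 and Dusp16 of 1.51 ± 0.14. Among the genes that fell, Dusp4 had -2.57 ± 0.12, Dusp6 -2.30 ± 0.08, Dusp7 -1.95 ± 0.08, Dusp3 -0.92 ± 0.06 and Dusp5 -0.56 ± 0.16. Dusp2 differed from the comparison without DGAT1i in being called, at -1.41 ± 0.38 (edgeR adjusted p = 9.42e-04). Its reads were 23, 20 and 21 in M0 with DGAT1i and 5, 5 and 5 with both treatments. Every library with both treatments was below every other library of the series for this gene. Markers of other cells moved here too. Of the neutrophil markers, 3 of the 4 tested were higher, with sums of 63 to 81 CPM against 22.9 to 29 CPM, and both dendritic cell markers tested were higher, with sums of 3.13 to 4.12 CPM against 0.264 to 0.568 CPM. Lck was higher at 2.81 and Cd79b lower at -1.78 on the log2 scale. Of the 7 macrophage markers 3 were higher and 4 lower, among them Lyz2, on average the most abundant, at -2.07. The 7 summed to 7820 to 8780 CPM against 16000 to 18000 CPM. Their part in the phosphatase results was not tested.

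**Figure D3:**
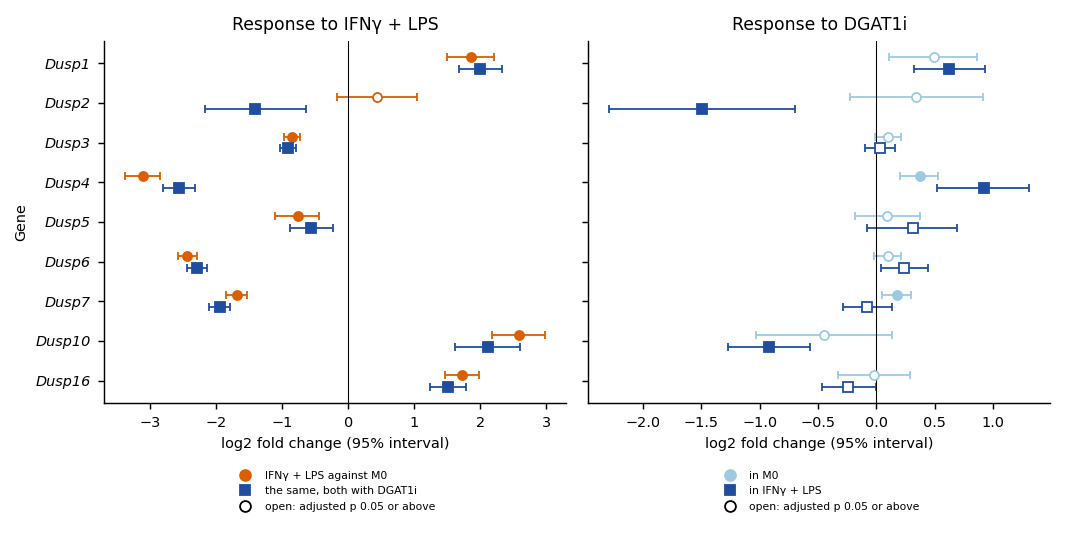
Log2 fold change with its 95% interval (horizontal axes) of each of the 9 genes (vertical axis) from edgeR, for the response to IFNγ + LPS (left) and to DGAT1i (right). Filled symbols passed an adjusted p of 0.05. On the left the 2 symbols of a gene lie on the same side of 0 except for Dusp2, and on the right Dusp1, Dusp2, Dusp4 and Dusp10 are called in stimulated cells and Dusp4 and Dusp7 in M0.

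The comparison of DGAT1i with no inhibitor in IFNγ + LPS-stimulated cells asks which phosphatases changed with T863 during activation. Triglycerides were not measured in these libraries, and the study's authors do not exclude off-target effects of T863. Dusp1 and Dusp4 rose and Dusp2 and Dusp10 fell, 4 of 9 genes, beside 29.8% of all genes called, 13.5% higher and 16.3% lower. The libraries of the groups did not overlap for 5 of the 9 genes, these 4 and Dusp5, beside 39.7% of all genes. The median log2 fold change over the 9 was 0.03, beside -0.01 over all genes.

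Dusp1 went from 38.5, 45.0 and 44.4 RPKM to 58.0, 69.1 and 70.3 RPKM. Each library with DGAT1i was above each without, so that the phosphatase that had risen on stimulation was higher still. The log2 fold change was 0.62 ± 0.13, or 1.54-fold (edgeR adjusted p = 0.00654). Dusp4 had 36, 26 and 24 reads without and 56, 48 and 41 reads with DGAT1i, or 2.77, 1.71 and 1.64 RPKM against 4.21, 3.65 and 3.49 RPKM. The libraries did not overlap, and all of them stayed far below the M0 libraries. The log2 fold change was 0.92 ± 0.20, or 1.89-fold (edgeR adjusted p = 1.95e-04).

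Dusp10 went from 4.78, 5.92 and 5.73 RPKM to 2.64, 3.15 and 2.92 RPKM. The libraries with DGAT1i lay between those of M0 and those with IFNγ + LPS alone, and overlapped with neither. The log2 fold change was -0.92 ± 0.18, or 1.89-fold lower (edgeR adjusted p = 3.73e-05). Dusp16, of the same preference for JNK and p38, had 3.67, 4.57 and 3.65 RPKM with DGAT1i against 4.43, 4.66 and 4.92 RPKM without. Replicate 2 with DGAT1i lay within the range of the other group, and the log2 fold change of -0.24 ± 0.12 did not pass (edgeR adjusted p = 0.13). Without that library it was -0.36 and passed (edgeR adjusted p = 0.0378).

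Dusp2 fell from 16, 17 and 15 reads to 5, 5 and 5 reads per library, or from 1.68, 1.53 and 1.4 RPKM to 0.514, 0.521 and 0.583 RPKM. The groups were apart, but the lower one rests on 15 reads in 3 libraries. The log2 fold change was -1.49 ± 0.40, or 2.82-fold lower (edgeR adjusted p = 0.00267). Dusp6 had 12.8, 10.9 and 11.3 RPKM with DGAT1i, which overlapped with the 11.0, 8.74 and 9.99 RPKM without it. Its log2 fold change was 0.24 ± 0.10 (edgeR adjusted p = 0.0579). It passed without IFNγ + LPS replicate 1, at 0.31, and without replicate 2 of the group with both treatments, at 0.28. It was 0.15 without IFNγ + LPS replicate 2 and 0.16 without replicate 1 of the group with both treatments, and did not pass. Dusp5 had 0.31 ± 0.19 with libraries that did not overlap, and Dusp7 had -0.08 ± 0.10 and Dusp3 0.03 ± 0.06 with libraries that did. The 95% intervals of these changes were -0.08 to 0.69 for Dusp5, -0.29 to 0.13 for Dusp7 and -0.10 to 0.16 for Dusp3. Dusp5 was 0.18 without replicate 2 of the group with both treatments, and Dusp7 ran from -0.16 to -0.01 when libraries were left out in turn.

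Markers of other cells moved in the same comparison. All 4 of the 8 neutrophil markers that could be tested were higher with DGAT1i. The summed level of the 8 was 63 to 81 CPM with DGAT1i, 15.2 to 25.5 CPM without it and 31.6 to 38.7 CPM in M0, while Ly6g was at 0 in every library and Elane in every stimulated one. Both dendritic cell markers tested were lower, with a summed level of the 4 of 3.13 to 4.12 CPM. Of the 7 macrophage markers 1 was higher and 3 were lower, and their sum was 7820 to 8780 CPM with DGAT1i. The part of these cells in the values of Dusp1, Dusp2, Dusp4 and Dusp10 was not tested.

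The comparison of DGAT1i with no inhibitor was also made in resting cells. Dusp4 and Dusp7 were called, both higher, 2 of 9 genes beside 24.4% of all genes, of which 11.0% were higher and 13.4% lower. The libraries did not overlap for 6 of the 9 genes, beside 37.8% of all genes, and the median log2 fold change was 0.10, beside 0.00 over all genes. Dusp4 went from 16.6, 18.5 and 17.4 RPKM to 23.8, 22.6 and 21.2 RPKM. The lowest library with DGAT1i was above the highest without, and the log2 fold change was 0.37 ± 0.08 (edgeR adjusted p = 4.36e-04). Dusp7 went from 27.8, 29.7 and 27.8 RPKM to 33.0, 32.2 and 31.3 RPKM, again with no overlap. Its log2 fold change of 0.18 ± 0.06 (edgeR adjusted p = 0.0312) lost its call with RLE or library-size scaling, with no filter and under DESeq2, where the adjusted p reached 0.164. It lost it as well without M0 replicate 1, M0 replicate 3 or replicate 1 or 2 of M0 with DGAT1i, at 0.16 to 0.18.

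Dusp1 had 14.9, 16.8 and 17.9 RPKM with DGAT1i at rest against 12.3, 14.2 and 8.83 RPKM without. The groups did not overlap, although M0 replicate 2 came close to the lowest DGAT1i library, and the log2 fold change was 0.49 ± 0.17 with a 95% interval of 0.11 to 0.86 (edgeR adjusted p = 0.0667). It passed without M0 replicate 2, at 0.65, without M0 replicate 3, at 0.31, and without replicate 1 of the group with both treatments, at 0.48. DESeq2 also called it, at 0.47, as did edgeR with no filter or with a replicate block, both at 0.49. Dusp10 had 15, 14 and 16 reads with DGAT1i, beside 15, 28 and 17 in M0, and a log2 fold change of -0.45 ± 0.29, which was -0.16 without M0 replicate 2. Dusp2 had 0.34 ± 0.28, Dusp3 0.10 ± 0.05, Dusp6 0.10 ± 0.06, Dusp5 0.09 ± 0.14 and Dusp16 -0.02 ± 0.15, none of which passed. The summed macrophage markers were 16000 to 18000 CPM with DGAT1i at rest, with 3 of 7 higher, among them Lyz2 at 0.44, and 1 lower. The neutrophil markers summed to 22.9 to 29 CPM against 31.6 to 38.7 CPM in M0, and of the 4 tested 0 were called. Cd79b was lower at -1.11 on the log2 scale. The part of these cells in the phosphatase results was not tested.

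Whether DGAT1i acted differently in stimulated and resting cells was tested as the difference between its log2 fold changes. Dusp2 was the 1 gene of the 9 that passed, beside 18.5% of all genes, 8.66% higher and 9.80% lower. Its difference was -1.84 ± 0.49 on the log2 scale (edgeR adjusted p = 0.00456), from 0.34 at rest and -1.49 in stimulated cells. Dusp4 had a difference of 0.55 ± 0.21 (edgeR adjusted p = 0.0619). It passed without IFNγ + LPS replicate 1, at 0.81, and with scaling by library size alone, at 0.60. Its range was 0.42 to 0.81 when libraries were left out in turn. Dusp10 had -0.47 ± 0.35 with a 95% interval of -1.17 to 0.23, which was -0.76 without M0 replicate 2, and Dusp1 0.14 ± 0.22 with an interval of -0.35 to 0.62. For Dusp1 and Dusp10, called in stimulated cells and not in M0, a difference between the responses was therefore not shown. Dusp7 had -0.26 ± 0.12, Dusp5 0.22 ± 0.24, Dusp16 -0.21 ± 0.19, Dusp6 0.14 ± 0.11 and Dusp3 -0.07 ± 0.08. None of these 5 passed, and without 1 library they ran from -0.34 to -0.19 for Dusp7, 0.09 to 0.35 for Dusp5, -0.34 to -0.04 for Dusp16, 0.05 to 0.22 for Dusp6 and -0.15 to -0.02 for Dusp3. Markers of other cells moved with this difference. All 4 neutrophil markers tested were higher by it, Ngp at 3.10, Ltf at 2.50, S100a8 at 2.38 and S100a9 at 2.20 on the log2 scale. The summed level of all 8 neutrophil markers was 63 to 81 CPM with both treatments, against 15.2 to 38.7 CPM over the other groups. Of the 7 macrophage markers 4 were lower by it. The part of these cells in the difference of Dusp2 was not tested.

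The other 2 typical MAPK phosphatases, Dusp8 and Dusp9, had few reads. Dusp8, a phosphatase of JNK and p38, had 10, 10 and 4 reads in M0 and 11, 29 and 19 reads after IFNγ + LPS, a log2 fold change of 1.74 ± 0.37 (edgeR adjusted p = 3.77e-05). With DGAT1i in both groups it had 10, 11 and 15 reads at rest and 9, 15 and 9 reads after stimulation, which overlapped, and 0.54 ± 0.39 did not pass (edgeR adjusted p = 0.216). That value was 0.27 to 0.71 when libraries were left out in turn, lowest without replicate 2 of the group with both treatments, and 0.12 with scaling by library size alone. Dusp9, a cytoplasmic ERK phosphatase, had 15, 24 and 17 reads against 4, 0 and 1 reads, at -2.94 ± 0.56 (edgeR adjusted p = 5.22e-06), which ranged from -4.54 to -2.33 when libraries were left out in turn. With DGAT1i in both groups Dusp9 had -1.40 ± 0.41 (edgeR adjusted p = 0.00227). Both are below the level set for named genes and were named after their values had been seen, as the remaining members of the typical MAPK phosphatase family. Of the other 15 atypical dual-specificity phosphatases, 8 could be tested, and 2 were higher and 4 lower after stimulation, beside 37.1% of all genes higher and 36.2% lower. Dusp28 rose by 3.12 ± 0.18 on the log2 scale. Dusp11, an RNA phosphatase, had 0.20 ± 0.07, a direction that turned to -0.27 with scaling by library size alone.

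Among the kinases that the phosphatases act on, 7 of 10 MAP kinase genes could be tested, and 2 were higher and 4 lower after IFNγ + LPS. The counts of this list and of those that follow for the stimulus stand beside 37.1% of all genes higher and 36.2% lower, 73.3% in all. Mapk9, which encodes JNK2, rose by 1.30 ± 0.06 on the log2 scale, and Mapk3, which encodes ERK1, had -0.79 ± 0.08. Of the 7 MAP kinase kinases, 5 were higher and 1 lower, among them Map2k1, the ERK kinase MEK1, at 0.93 ± 0.05 and Map2k4, a JNK kinase, at 0.62 ± 0.08. With scaling by library size alone Map2k4 had 0.15 and was not called (edgeR adjusted p = 0.0781). Of the 12 MAP kinase kinase kinases, 6 were higher and 2 lower. Map3k8, the kinase that links LPS receptors to MEK in macrophages, had 1.50 ± 0.10. Of the 10 kinases downstream of MAP kinases, 3 were higher and 5 lower, with Mapkapk2, the p38 substrate MK2, at 0.75 ± 0.06 and Rps6ka4 at 0.70 ± 0.07. Of 6 other phosphatases that act on MAP kinases and could be tested, 4 were higher and 2 lower, among them Ppp2ca at 0.66 ± 0.05 and Ptpn7 at -0.79 ± 0.06.

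Of the 7 ERK feedback genes tested, 1 was higher and 3 were lower after IFNγ + LPS, beside the same 37.1% and 36.2% of all genes. Etv5, an ETS factor transcribed like Dusp6 downstream of ERK, had -2.61 ± 0.08, and Ier3, an immediate early gene, had 3.10 ± 0.16. Of 11 genes responsive to glucocorticoid or cyclic AMP, classes of signal that also induce Dusp1, 5 were higher and 5 lower. Pde4b, a cyclic AMP phosphodiesterase, had 4.57 ± 0.14 and Crem 2.83 ± 0.11. Also higher were Nr4a2 at 1.78, Per1 at 0.76 and Sik1 at 0.60. Lower were Zbtb16 at -6.12, Nr4a1 at -3.48, Fkbp5 at -3.34, Pde4d at -1.37 and Tsc22d3 at -0.90. Nr4a2, Zbtb16 and Pde4d lay below the level set for named genes. Those beyond the naming rule were added after their values had been seen. The medians of these 9 other lists in this comparison lay between -0.60 and 0.46 on the log2 scale. With DGAT1i in both groups the genes that the rule also named there had the same direction. Among them were Mapk9 at 1.37 ± 0.06, Etv5 at -2.48 ± 0.09 and Pde4b at 3.96 ± 0.15. Sik1, which the rule did not name there, was lower at -0.54 ± 0.13.

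**Figure D4:**
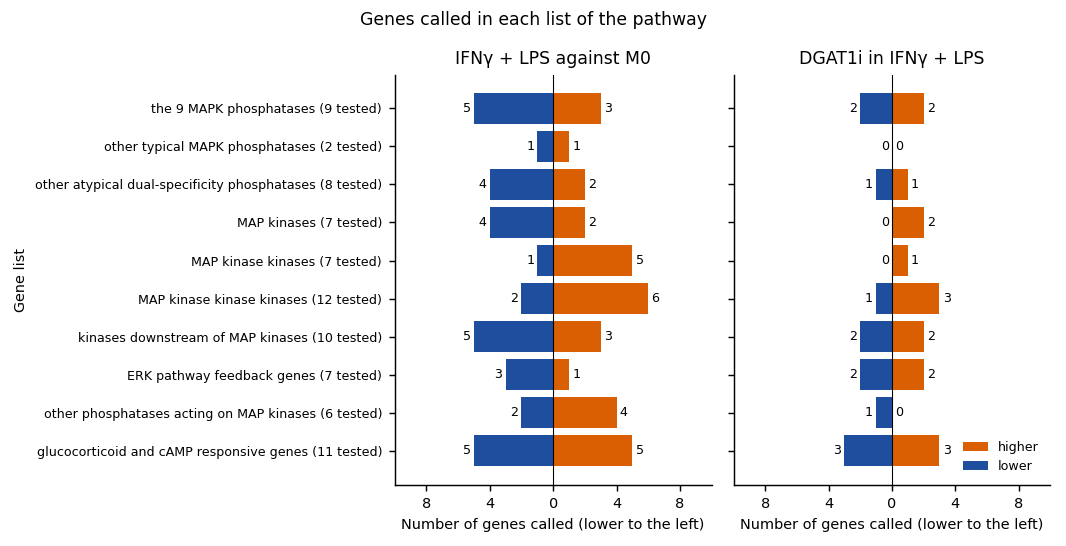
Number of genes called by edgeR at an adjusted p under 0.05 (horizontal axes), higher to the right and lower to the left, in each list of the MAP kinase pathway (vertical axis, with the number tested), for IFNγ + LPS against M0 and for DGAT1i in IFNγ + LPS. Of the 9 phosphatases 8 were called in the first comparison and 4 in the second, and 5 of 7 MAP kinase kinases were higher in the first.

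For DGAT1i in stimulated cells the counts of these lists stand beside 29.8% of all genes called, 13.5% higher and 16.3% lower. Mapk3 rose by 0.56 ± 0.09 and Mapk14, which encodes p38α, by 0.21 ± 0.07, the 2 MAP kinases called of 7. Map2k1 was the 1 kinase called of 7 MAP kinase kinases, at 0.16 ± 0.05. Of 12 MAP kinase kinase kinases, 3 were higher and 1 lower, with Map3k5, the stress kinase ASK1, at 0.53 ± 0.13 and Map3k1 at 0.25 ± 0.07. Of the kinases downstream, 2 of 10 were higher and 2 lower, with Rps6ka2 at -0.94 ± 0.13 and Mapkapk2 at -0.40 ± 0.06. Ier3 had 0.84 ± 0.10 and Spred3, an inhibitor of ERK pathway signalling, 0.80 ± 0.18, the 2 ERK feedback genes that rose of 7, while Etv5 at -0.44 ± 0.12 and Spred1 at -0.24 ± 0.05 fell. Of the genes responsive to glucocorticoid or cyclic AMP, 3 of 11 were higher, Klf9 at 0.62, Tsc22d3 at 0.53 and Per1 at 0.36. The 3 lower ones were Pde4b at -0.74 ± 0.09, Sik1 at -0.73 ± 0.14 and Crem at -0.32. Those beyond the naming rule were added after their values had been seen, to give all that were called. Dusp28 had -0.49 ± 0.14, Dusp11 0.21 ± 0.07, and Ppm1d, a stress-induced phosphatase, -0.68 ± 0.20. Map2k1 was not called without replicate 1 or 3 of IFNγ + LPS, without replicate 1 or 2 of the group with both treatments, or with no filter (0.12 to 0.15, edgeR adjusted p up to 0.22). Mapk14 was not called without IFNγ + LPS replicate 2, without replicate 1 of the group with both treatments (0.12), with no filter or under DESeq2 (adjusted p up to 0.251). Map3k1 was not called without IFNγ + LPS replicate 1 (0.17) or replicate 2 with both treatments. Without that last library neither Dusp11 (0.17) nor Ppm1d (-0.54) was called, and Dusp11 was also not called with no filter.

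At rest DGAT1i raised Mapk3 by 0.26 ± 0.07, Braf by 0.45 ± 0.08, Map3k2 by 0.27 ± 0.07, Styx, a catalytically dead relative of the dual-specificity phosphatases, by 0.59 ± 0.21, and Tsc22d3, a glucocorticoid target, by 0.43 ± 0.07. Of the 7 ERK feedback genes 2 were higher, Ier3 at 0.61 ± 0.21 and Spry2 at 0.48 ± 0.12, and 2 were lower, Etv5 at -0.57 ± 0.06 and Spred1 at -0.30 ± 0.05, beside 11.0% of all genes higher and 13.4% lower at rest. In both DGAT1i comparisons the ERK feedback genes beyond the naming rule were added after their values had been seen, to give all that were called. Mapkapk2 had -0.32 ± 0.06, Rps6ka5 -0.68 ± 0.15, Ptpn7 -0.41 ± 0.06, Ppm1d -0.51 ± 0.15 and Fkbp5 -0.66 ± 0.12. Styx, whose libraries overlapped, was not called without M0 replicate 2 or 3, without replicate 1 or 2 of M0 with DGAT1i, with library size only, with no filter or under DESeq2 (0.45 to 0.59, adjusted p up to 0.208). Without M0 replicate 2 neither Mapk3 (0.21) nor Ppm1d (-0.40) was called. Ier3 was not called without M0 replicate 1 or 2, without replicate 2 or 3 of M0 with DGAT1i, or under DESeq2 (0.54 to 0.63, adjusted p up to 0.101).

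Across the 12 libraries the 9 genes fell into patterns that the groups set. Dusp1, Dusp10 and Dusp16 had pairwise correlations of their log2 CPM of 0.835 to 0.961, and Dusp3, Dusp4, Dusp5, Dusp6 and Dusp7 of 0.857 to 0.992. Between both sets they were negative, from -0.985 for Dusp4 and Dusp10 to -0.704 for Dusp1 and Dusp5. Dusp2 had the weakest, from -0.538 with Dusp1 to 0.425 with Dusp7. The libraries of a group share their treatment, so that these values describe the 4 groups more than 12 independent points. Among 10149 other genes whose average log2 CPM was 2 or more, the one most like Dusp1 was Mkrn1 (r = 0.994), the one most like Dusp6 was Snx3 (0.997), and the one most like Dusp10 was Myd88 (0.996). For Dusp4 it was Nek6 (0.995), for Dusp3 Ppfibp1 (0.995), for Dusp7 F630028O10Rik (0.997), for Dusp16 Gm42547 (0.99) and for Dusp5 Zfp512b (0.946).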

How the data were processed

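The authors deposited raw counts of reads per gene for 12 RNA sequencing libraries, not normalized, made with the snakePipes pipeline of their institute. The submitters' processing notes name GRCm38 and DESeq2. The sources used here do not give the aligner, the counting tool or the annotation release, and the labels and the study's methods name different RNA and library kits. Groups were taken from the sample titles. No column of the table was left unassigned (0 unused columns).

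Identifiers were matched without version to GENCODE M21, which left 627 of 47937 genes, 29 of them tested, without a symbol. Counts were filtered with filterByExpr (11760 genes), scaled by TMM and fitted in edgeR 4.0.16 (R 4.3.3) with glmQLFit (robust) and 1 mean per group over all 12 libraries. Genes with an adjusted p under 0.05 (Benjamini-Hochberg, all genes tested) were called. The fit was also run on counts simulated from its own means and spread with few genes changed. That run cannot test the scaling where most genes change, and its outcome is not reported here. Intervals are 95% intervals of the fit. Totals of 4996014 to 6621671 reads limit the precision of genes below 1 CPM to a handful of reads. RPKM used the union of exons. The alternatives were RLE or no scaling factors, no filter or a mean CPM of at least 1, DESeq2 1.42.0, only the 6 libraries compared, a replicate block, an adjusted p under 0.1, leaving out each library, and the longest transcript for the levels.

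The members, the pathway and marker lists and the tests were chosen with earlier results of these data known. Named genes are the 9 members and, per list and pairwise comparison, up to 2 called genes with the smallest p and an average log2 CPM of at least 2, of which 1 gene is not reported here. Like genes were the 3 with the highest Pearson r for each member with that level. Figures were drawn with matplotlib 3.10.9.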

Additional observations from a re-analysis of the deposited data

Results flagged for a closer look

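The response to DGAT1i differed between stimulated and resting cells for Dusp2 by the test of the difference itself, -1.84 ± 0.49 on the log2 scale (edgeR adjusted p = 0.00456). Dusp2 rests on 15 to 17 reads per library with IFNγ + LPS and on 5 reads per library with both treatments. Under the alternatives the adjusted p of this difference ranged from 0.00455 to 0.0271, and the value from -1.9 to -1.78 when libraries were left out. All 4 neutrophil markers tested also differed between the responses, at 2.20 to 3.10 on the log2 scale, and their part in the value of Dusp2 was not tested.

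Of the other genes of the pathway that the naming rule gave, 10 differed between the responses by the same test. The DGAT1i response was higher in stimulated cells than at rest for Rps6ka5 (difference 0.95), Spred3 (0.68), Map3k5 (0.62), Ptpn7 (0.45), Mapk14 (0.36), Map3k1 (0.36) and Map2k1 (0.22), and lower for Rps6ka2 (-1.14), Sik1 (-1.14) and Braf (-0.31). Of these, 4 were not called in every alternative. Braf lost its call without 1 library in 9 of 12 cases and in 3 other settings (adjusted p up to 0.16), Map2k1 in 9 and 1 (up to 0.248), Spred3 in 5 and 2 (up to 0.116), and Rps6ka5 without replicate 1 of the group with both treatments (0.75, adjusted p = 0.0566). These genes were named for a DGAT1i response in at least 1 of the comparisons, from which the difference is made, so that the number of differences is not read as a share. Groups of 3 libraries were not searched for single outlying values.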

How the results depend on the processing

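In both comparisons of IFNγ + LPS with its control, the calls and directions of the 9 phosphatases held under the alternatives run, except that Dusp2 without DGAT1i, not called, turned to -0.04 with scaling by library size only, as did Dusp11, at -0.27. That scaling took the median over all genes (log2) from 0.01 to -0.46 without DGAT1i and from -0.01 to -0.43 with it. For DGAT1i in IFNγ + LPS, Dusp1, Dusp2, Dusp4 and Dusp10 kept their calls throughout, and Dusp3 turned to -0.01 with no filter. For DGAT1i in M0, 1 phosphatase was called with RLE and with library size only, and 1 to 3 when libraries were left out. For the difference between the responses, 2 were called with library size only and 2 at an adjusted p under 0.1, Dusp2 and Dusp4 in both cases. When libraries were left out, 1 to 2 were called. Directions that turned without 1 library were those of Dusp3 for DGAT1i in IFNγ + LPS (-0.05 to 0.09), Dusp5 (-0.05 to 0.18) and Dusp16 (-0.20 to 0.10) for DGAT1i in M0, and Dusp1 for the difference (-0.03 to 0.31), none of them called. The cause of these changes was not tested. Braf lost its call for the difference with RLE, library size only and DESeq2, Map2k1 with no filter and Spred3 with no filter and DESeq2, and these 3 and Rps6ka5 lost it without 1 library or more. Over the alternatives, the counts of all genes called ranged from 2111 to 3525 for DGAT1i in M0 and from 2806 to 4282 for DGAT1i in IFNγ + LPS. Libraries with the same number had an r of their deviations of -0.0217 to 0.0687, with none of 12 pairs over 0.1. In 8 of 12 pairs it was above the r with other numbers, so that a weak pairing is not excluded. A replicate block raised the genes called in every comparison, for DGAT1i in M0 from 2869 to 2959 and in IFNγ + LPS from 3508 to 3568. The phosphatases called for DGAT1i in M0 went from 2 to 3, by Dusp1. With the longest transcript or library size only, 53 of 72 mean levels moved by over 1 SD. The fit on the 6 libraries compared could not be made for the difference, which uses all groups. Depth limits Dusp2 and Dusp10 most, with 5 to 28 reads in some groups.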
